A study of Mus musculus with 32 samples.

Results

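De novo lipogenesis, the synthesis of fatty acids from carbohydrate carbon, was followed through 10 genes in the liver and in the adipose depots of *Gpr146* KO and wild-type mice. They were chosen by name, as *Acly*, *Me1*, *Acaca*, *Acacb*, *Fasn*, *Scd1*, *Elovl6*, *Thrsp*, *Srebf1* and *Mlxipl*, and all 10 had 1 entry among the 24646 named genes of each tissue's table. Gene expression had been measured on Affymetrix Mouse Gene 2.1 ST arrays, 1 array per mouse and tissue, in liver, epididymal white fat (eWAT), inguinal white fat (iWAT) and brown fat (BAT), which gave 32 arrays from 4 mice of each genotype. All were male littermates on the C57BL/6J background, aged 20 weeks, that had eaten a high-fat diet (HFD) for 3 months and had been fasted overnight. The KO mice lack *Gpr146*, a G-protein-coupled receptor, in the whole body, so each tissue's values were taken in animals in which every tissue lacked it. For the livers of KO mice the titles name both genotypes, while their descriptions and genotype fields say KO. The comparison asked how the loss of GPR146 changed the expression of the pathway in each tissue of HFD-fed, fasted males.

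In the pathway, ATP citrate lyase splits cytosolic citrate into acetyl-CoA, acetyl-CoA carboxylase turns it into malonyl-CoA, and fatty acid synthase builds palmitate from both with NADPH, part of which comes from malic enzyme. Palmitate is then elongated and desaturated before it enters triglycerides and membranes. Transcription of these genes is driven by SREBP-1c, under insulin and LXR, and by ChREBP, under glucose. The pathway is known to be most active in liver and fat after carbohydrate feeding, and to be low in the fasted state.

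The promoters of *Fasn*, *Thrsp* and *Elovl6* are shown because the former 2 genes rose in eWAT and the latter fell. Each window runs from 250 bases before to 50 bases after a RefSeq transcription start (GRCm38.p6) and is written 5′ to 3′ along the gene's own strand, with the matches to CCAAT or its reverse complement ATTGG in capitals.
Fasn, chr11:120824498-120824797, minus strand: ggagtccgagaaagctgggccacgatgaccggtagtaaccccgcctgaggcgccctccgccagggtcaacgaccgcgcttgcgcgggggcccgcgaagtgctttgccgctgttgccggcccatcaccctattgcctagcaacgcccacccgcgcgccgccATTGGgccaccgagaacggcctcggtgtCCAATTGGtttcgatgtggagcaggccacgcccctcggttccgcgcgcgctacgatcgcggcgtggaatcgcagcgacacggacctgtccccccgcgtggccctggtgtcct
Thrsp, chr7:97417501-97417800, minus strand: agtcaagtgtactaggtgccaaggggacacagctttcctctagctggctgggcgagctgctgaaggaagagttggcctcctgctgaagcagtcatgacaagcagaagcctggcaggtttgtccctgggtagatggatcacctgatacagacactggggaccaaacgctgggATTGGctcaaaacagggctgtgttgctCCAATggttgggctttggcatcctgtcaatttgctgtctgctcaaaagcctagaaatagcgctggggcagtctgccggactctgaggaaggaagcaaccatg
Elovl6, chr3:129532136-129532435, plus strand: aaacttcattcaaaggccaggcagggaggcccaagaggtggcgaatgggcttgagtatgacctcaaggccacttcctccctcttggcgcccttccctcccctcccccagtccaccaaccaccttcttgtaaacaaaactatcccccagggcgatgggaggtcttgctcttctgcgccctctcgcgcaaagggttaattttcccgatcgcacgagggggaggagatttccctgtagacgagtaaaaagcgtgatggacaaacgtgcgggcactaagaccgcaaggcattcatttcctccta
The *Fasn* window held 3 matches, of which the pair in CCAATTGG overlap, and the *Thrsp* window held 2. The *Elovl6* window held none of the motifs that were searched. The window of *Acaca*, a gene that rose in eWAT, held none of them either. That window, chr11:84195188-84195487, lies inside the gene, which starts at 84129635, so the region at the first start was not searched. The window of *Acacb*, chr5:114165268-114165567, likewise lies inside its gene, which starts at 114146321.

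The motifs were the sterol response element TCACCCCAC, the E-box CACGTG, the CCAAT box and the GC box GGGCGG, each on both strands. Of the 10 genes, 9 had a window (all but *Scd1*), with 13 windows in all. No window of these genes held TCACCCCAC, which was in 0.55% of the 32851 windows of all genes. CACGTG was found in 1 gene, *Mlxipl*, against 7.15% of all windows. CCAAT was found in 7 genes (*Acacb*, *Acly*, *Fasn*, *Me1*, *Mlxipl*, *Srebf1* and *Thrsp*), against 37.4% of all windows, and GGGCGG in 4 (*Acly*, *Me1*, *Mlxipl* and *Srebf1*), against 35.7%. A gene with several windows had more chances to hold a motif than a single window. These matches describe the letters of the windows, and binding was not measured.

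The arrays were first checked against their labels. Values are log2 expression values as deposited, so a difference of 1 is a 2-fold change. *Gpr146* was lower in every KO mouse than in every wild-type mouse of the same tissue, by 1.77 in liver, 1.53 in eWAT, 1.55 in iWAT and 1.16 in BAT. This difference passed the test used here in liver and eWAT (adjusted p = 6.55e-06 and 0.00823) but not in iWAT or BAT (0.221 and 0.0727). Each labelled tissue had its defining markers at high levels: the mean of 8 hepatocyte markers was at least 10.75 in every liver, the mean of 8 adipocyte markers at least 9.13 in every fat sample, and the mean of 8 brown adipocyte markers at least 8.32 in every BAT sample. Some arrays carried markers of other tissues. Means of 8 B cell markers, as found in a lymph node, were 7.91 and 7.86 in iWAT of wild-type mice 1 and 2 and 7.52 and 5.74 in iWAT of KO mice 2 and 4, against 3.16 to 3.49 in the others. Means of 8 skeletal muscle markers were 6.36 and 7.50 in BAT of wild-type mice 2 and 3 and 7.62 in BAT of KO mouse 2, against 2.92 to 3.77 in the others. In eWAT, the mean of 8 macrophage markers was 9.39 to 9.54 in wild-type mice and 6.01, 9.05, 7.34 and 6.29 in KO mice 1 to 4.

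Of the 10 lipogenesis genes, 6 passed the test in eWAT, 1 in liver and none in iWAT or BAT (limma, Benjamini-Hochberg adjusted p below 0.05 over all genes of a tissue). In eWAT 5 were higher in KO mice (*Fasn*, *Acaca*, *Acacb*, *Scd1* and *Thrsp*) and 1 was lower (*Elovl6*), in a tissue where 15.2% of all genes passed. After quantile normalization 7 passed in eWAT and all 7 were higher, while the calls over all genes went from 1126 higher and 2632 lower to 1830 higher and 1910 lower. The single gene in liver was *Me1*, which was lower, where 0.661% of all genes passed. In iWAT 0% of all genes passed, although 6 of the 10 and 3803 of all genes had an unadjusted p below 0.05, and the methods' t-test with Benjamini-Hochberg adjustment called none of the 10 either. In BAT 0.0284% of all genes passed, while 5 of the 10 and 3127 of all genes had an unadjusted p below 0.05.

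In each tissue most of the genes had a higher mean in KO mice. The KO mean was the higher one for 8 of 10 in liver, 9 of 10 in eWAT, 7 of 10 in iWAT and 9 of 10 in BAT, values that include differences close to 0. Their median log2 difference was 0.39 in liver, 0.63 in eWAT, 0.73 in iWAT and 0.38 in BAT, against 0.01, 0.03, 0.02 and 0.0032 over all genes. The values of KO and wild-type mice did not overlap for 4 of the 10 in liver (7.78% of all genes), 6 in eWAT (21.6%), 3 in iWAT (8.15%) and 2 in BAT (7.23%). With 4 mice against 4, an exact two-sided permutation test of a single gene cannot give a p below 0.0286. In whole tissue, a change in the share of cells that express a gene and a change in its RNA per cell cannot be told apart.

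**Figure D1:**
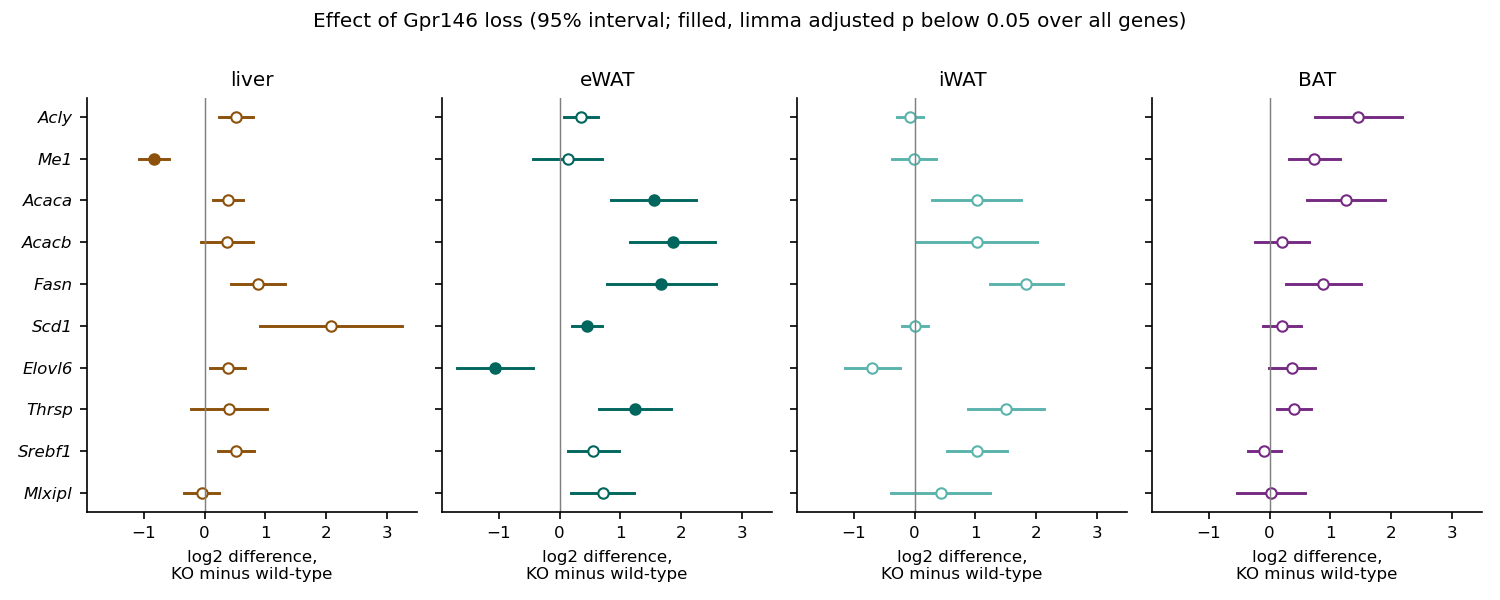
Log2 difference between KO and wild-type mice for the 10 genes in each tissue (x axis, KO minus wild-type), with points for the estimate, lines for the 95% interval and filled points for genes past the adjusted threshold. Filled points appear for 6 genes in eWAT and for *Me1* in liver. The iWAT intervals of *Fasn*, *Thrsp*, *Srebf1*, *Acaca* and *Acacb* lie wholly above 0 and that of *Elovl6* wholly below 0, without passing the adjustment.

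*Acly* encodes ATP citrate lyase, which supplies the acetyl-CoA. Its largest difference was in BAT, at 9.01, 7.64, 7.85 and 7.11 in the wild-type mice and 9.50, 9.24, 9.16 and 9.55 in the KO mice. All KO mice lay above all wild-type mice there, while the wild-type mice themselves spread over 1.90 log2 units. The difference was 1.46 ± 0.32 (SE, n = 4 per genotype), a 2.75-fold higher mean with adjusted p = 0.13. Without wild-type mouse 1 it was 1.83 and passed the threshold, as did 80 genes in all. The livers also separated, at 7.07, 6.92, 6.81 and 7.0 in the wild-type mice and 7.87, 7.42, 7.28 and 7.29 in the KO mice, with a difference of 0.51 ± 0.13 and adjusted p = 0.109. In eWAT the difference was 0.36 ± 0.12 with adjusted p = 0.0834, and the groups overlapped by 1 pair of mice. It passed with array weights (0.41), after quantile normalization (0.52) and without KO mouse 2 (0.42). In iWAT the means were 6.61 ± 0.13 in wild-type and 6.54 ± 0.04 in KO mice (SD), and the 95% interval of the difference was -0.29 to 0.13.

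*Me1* encodes cytosolic malic enzyme, a source of NADPH, and it was the only one of the 10 that passed in liver. It fell there by 0.83 ± 0.11 on the log2 scale, from 7.28, 7.63, 7.39 and 7.52 in wild-type mice to 6.52, 6.43, 6.67 and 6.89 in KO mice. The highest KO liver was below the lowest wild-type liver, the mean was 1.78-fold lower, and the adjusted p was 0.0109. In BAT its values pointed the other way, at 9.22, 8.45, 8.74 and 8.59 in the wild-type mice and 9.91, 9.44, 9.16 and 9.45 in the KO mice, with a difference of 0.74 ± 0.19 and adjusted p = 0.155. The KO BAT value of mouse 3 was below that of wild-type mouse 1. In both white depots *Me1* differed little, by 0.14 ± 0.25 in eWAT (95% interval -0.43 to 0.70) and -0.013 ± 0.16 in iWAT (-0.38 to 0.35). Adipocyte markers in the livers averaged 4.06 to 4.53 in wild-type and 3.53 to 4.18 in KO mice, and macrophage markers 4.28 to 4.52 and 3.56 to 4.45. Members of both lists went both ways. Of the 8 adipocyte markers, 5 had a lower and 3 a higher KO mean, and 2 passed as lower. Of the 8 macrophage markers, 4 had a lower and 4 a higher KO mean, and none passed. The part of these markers in the difference of *Me1* was not tested.

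*Acaca* and *Acacb* encode the acetyl-CoA carboxylases, the cytosolic form that makes malonyl-CoA for synthesis and the mitochondrial-membrane form whose malonyl-CoA restrains the entry of fatty acids into mitochondria. Both rose in eWAT. *Acacb* stood at 5.82, 5.26, 5.75 and 5.47 in the wild-type mice and 7.68, 6.45, 7.45 and 8.17 in the KO mice, with the lowest KO mouse (mouse 2) above the highest wild-type mouse. Its difference of 1.86 ± 0.31 was the largest of the 10 genes in eWAT, a 3.63-fold higher mean with adjusted p = 0.00987.

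*Acaca* in eWAT stood at 6.63, 6.41, 6.67 and 6.33 in the wild-type mice and 8.65, 7.09, 7.83 and 8.65 in the KO mice. The wild-type mice lay within 0.33 of each other, whereas KO mouse 2 was 1.56 below KO mouse 1. The difference was 1.54 ± 0.31, a 2.91-fold higher mean with adjusted p = 0.0144. Both carboxylase genes passed in eWAT under each alternative that keeps limma, including every mouse left out in turn.

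Outside eWAT, neither gene passed. *Acaca* in BAT was 9.63, 8.62, 8.61 and 7.96 in the wild-type mice and 10.28, 9.74, 9.74 and 10.09 in the KO mice, without overlap, with a difference of 1.26 ± 0.29 and adjusted p = 0.136. Without wild-type mouse 1, whose BAT value was the highest of its group, the difference was 1.56 and passed. In liver *Acaca* was 5.80, 5.83, 5.42 and 5.66 in the wild-type mice and 6.28, 6.11, 5.96 and 5.89 in the KO mice, again without overlap but with a smaller difference of 0.38 ± 0.11 (adjusted p = 0.169). *Acacb* overlapped between genotypes in both tissues, with differences of 0.37 ± 0.19 in liver and 0.21 ± 0.20 in BAT (95% intervals -0.056 to 0.80 and -0.23 to 0.65). In iWAT the differences of *Acaca* and *Acacb* were 1.02 ± 0.32 and 1.02 ± 0.44, with overlap of the groups in each and adjusted p of 0.239 and 0.313.

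*Fasn* encodes fatty acid synthase, which assembles palmitate. Higher KO means were found in all 4 tissues, and the groups did not overlap in 3 of them. In iWAT the values were 7.19, 6.91, 7.53 and 7.03 in the wild-type mice and 9.40, 8.36, 9.56 and 8.69 in the KO mice, so that the lowest KO mouse (mouse 2) was above the highest wild-type mouse. The iWAT difference of 1.84 ± 0.27, a 3.57-fold higher mean, had an unadjusted p of 6.62e-05 and an adjusted p of 0.221. In eWAT the values were 8.04, 7.25, 7.94 and 6.44 in the wild-type mice and 9.56, 8.42, 8.62 and 9.76 in the KO mice, with a difference of 1.67 ± 0.40, a 3.19-fold higher mean and adjusted p = 0.0235. Wild-type eWAT ranged over 1.60 log2 units, and the call was lost without wild-type mouse 2 or 4 or KO mouse 1 or 4, where the difference was 1.62, 1.35, 1.52 and 1.45.

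In liver *Fasn* was 7.76, 7.15, 6.88 and 7.41 in the wild-type mice and 8.64, 7.89, 8.28 and 7.90 in the KO mice. Every KO liver exceeded every wild-type liver, the closest pair being KO mouse 2 and wild-type mouse 1. The difference was 0.88 ± 0.20, a 1.84-fold higher mean with adjusted p = 0.0825. In BAT the values were 11.16, 10.17, 10.42 and 9.50 in the wild-type mice and 11.30, 11.11, 11.03 and 11.33 in the KO mice, with a difference of 0.88 ± 0.28 and adjusted p = 0.22. Only wild-type mouse 1 reached the KO range in BAT, and the other wild-type mice were below it.

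**Figure D2:**
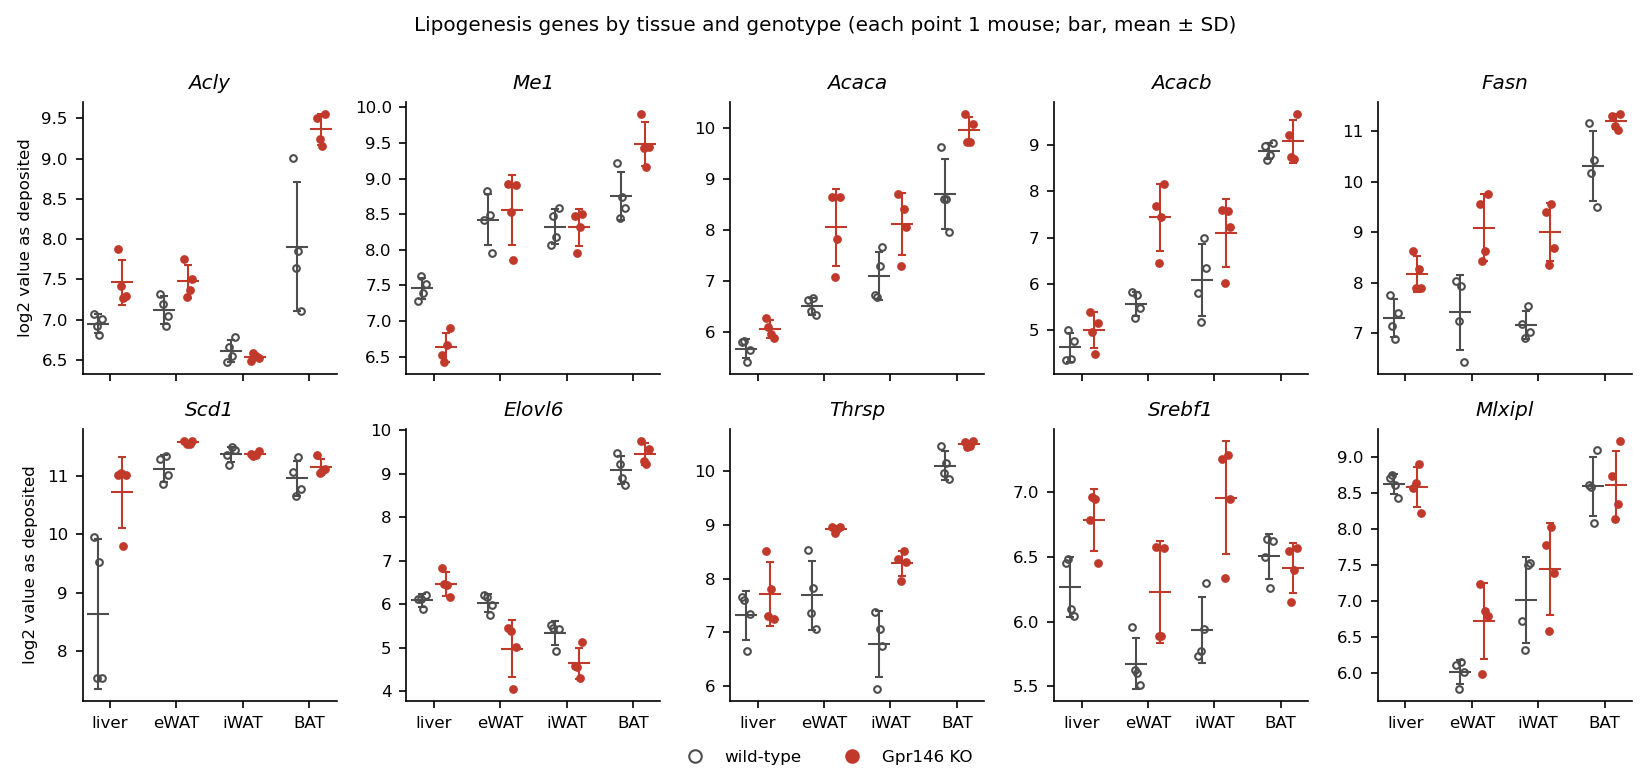
Log2 values of the 10 genes (y axis, as deposited) by tissue, with open grey points for wild-type and filled red points for KO mice, each point being 1 mouse and bars the mean ± SD of 4 mice. Levels are not comparable between panels, and each tissue's table has its own median. *Fasn*, *Acaca* and *Acacb* in eWAT show KO mice above all wild-type mice, *Elovl6* shows the reverse in eWAT, and *Scd1* in liver shows wild-type mice at 7.53 and 7.54 as well as at 9.52 and 9.95.

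*Scd1* encodes the stearoyl-CoA desaturase that makes monounsaturated fatty acids, and its difference in liver was the largest of any of the 10 genes in any tissue. The liver values were 9.95, 7.53, 9.52 and 7.54 in the wild-type mice and 11.01, 11.05, 9.80 and 11.01 in the KO mice. Wild-type mice 2 and 4 were far below wild-type mice 1 and 3, and KO mouse 3 lay below wild-type mouse 1. The difference was 2.08 ± 0.53, a 4.23-fold higher mean with a 95% interval of 0.92 to 3.24, and it did not pass (adjusted p = 0.113, exact permutation p = 0.0571).

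In eWAT *Scd1* was 11.29, 10.86, 11.33 and 11.01 in the wild-type mice and 11.59, 11.55, 11.54 and 11.59 in the KO mice. All KO mice were above all wild-type mice, and the KO mice lay within 0.05 of one another. The rise of 0.45 ± 0.11 had adjusted p = 0.025. It did not pass after quantile normalization (0.29) or without wild-type mouse 2 (0.36), wild-type mouse 4 (0.41), KO mouse 1 (0.44) or KO mouse 4 (0.44). These values were 0.46 to 1.09 below the highest value on the same array, and those in iWAT 0.52 to 0.79 below it, and whether the top of the scale limited the differences there was not tested. In iWAT and BAT the 95% intervals of the difference were -0.20 to 0.22 and -0.12 to 0.52.

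*Elovl6* encodes the elongase that extends palmitate to stearate, and it was the 1 gene of the 10 that fell in eWAT. In eWAT it was 6.21, 6.16, 5.76 and 5.98 in the wild-type mice and 5.46, 5.39, 4.05 and 5.0 in the KO mice. The highest KO mouse lay below the lowest wild-type mouse, and KO mouse 3 was the lowest by far. *Elovl6* fell by 1.05 ± 0.28 on the log2 scale, a 2.08-fold lower mean with adjusted p = 0.0329. The call was lost after quantile normalization (-0.91) and without wild-type mouse 1, 2, 3 or 4 or KO mouse 4 (-0.99, -1.01, -1.14, -1.07 and -1.06), with little change in size.

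In iWAT *Elovl6* was 5.53, 5.44, 4.91 and 5.42 in the wild-type mice and 4.57, 4.55, 4.29 and 5.13 in the KO mice. Wild-type mouse 3 stood apart from its group and lay below KO mouse 4, and the difference of -0.69 ± 0.20 had adjusted p = 0.229. Liver and BAT had the opposite sign, with 6.09 ± 0.15 in wild-type and 6.47 ± 0.27 in KO mice in liver and 9.09 ± 0.33 in wild-type and 9.46 ± 0.25 in KO mice in BAT (SD). Those differences were 0.38 ± 0.13 and 0.37 ± 0.17 with adjusted p of 0.234 and 0.411.

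*Thrsp* encodes Spot 14, a small nuclear protein that promotes lipogenesis and responds to thyroid hormone. In eWAT it was 8.54, 7.35, 7.81 and 7.06 in the wild-type mice and 8.96, 8.86, 8.93 and 8.97 in the KO mice. The KO mice lay within 0.11 of each other, above wild-type mice that spread over 1.47 log2 units. It rose by 1.24 ± 0.26, 2.36-fold, with adjusted p = 0.0167, and did not pass without wild-type mouse 2 (1.12). In iWAT it was 7.37, 5.94, 7.05 and 6.74 in the wild-type mice and 8.36, 7.96, 8.51 and 8.31 in the KO mice, again without overlap. The iWAT difference of 1.51 ± 0.28 had an unadjusted p of 0.000384 and an adjusted p of 0.221. In liver and BAT the groups overlapped, with differences of 0.40 ± 0.29 and 0.40 ± 0.12 (adjusted p of 0.592 and 0.214).

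Neither transcription factor gene passed in eWAT. *Srebf1*, which encodes SREBP-1a and SREBP-1c (not told apart by these values), was 5.96, 5.63, 5.60 and 5.51 in the wild-type mice and 6.58, 5.89, 5.89 and 6.57 in the KO mice in eWAT. KO mice 1 and 4 were high there and KO mice 2 and 3 lay just below the highest wild-type mouse, and the difference of 0.55 ± 0.19 had adjusted p = 0.0764. It passed with array weights (0.71), after quantile normalization (0.73), without KO mouse 2 (0.67) and without KO mouse 3 (0.67). In iWAT *Srebf1* was 5.74, 5.77, 5.94 and 6.29 in the wild-type mice and 7.25, 6.34, 7.29 and 6.95 in the KO mice, without overlap. That difference was 1.02 ± 0.22, a 2.03-fold higher mean with unadjusted p = 0.00112 and adjusted p = 0.221. In liver it was 0.52 ± 0.14 (adjusted p = 0.128), and in BAT -0.087 ± 0.12 (95% interval -0.36 to 0.18).

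*Mlxipl*, which encodes ChREBP, was 6.11, 5.78, 6.15 and 6.02 in the wild-type mice and 7.24, 5.99, 6.86 and 6.80 in the KO mice in eWAT. KO mouse 2 lay inside the wild-type range and the other 3 KO mice above it, and the difference of 0.71 ± 0.23 had adjusted p = 0.0681. Without KO mouse 2 it was 0.95 and passed, as it did with array weights (0.83), after quantile normalization (0.88) and, at an unchanged difference, without dim genes. In liver, iWAT and BAT the 95% intervals were -0.33 to 0.24, -0.39 to 1.24 and -0.54 to 0.58.

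KO mouse 2 was the lowest of the KO mice in both white depots by the mean deviation of the 10 genes from their KO mean. This was -0.36 in eWAT and -0.48 in iWAT. In eWAT KO mouse 3 was close to it at -0.26, with KO mice 1 and 4 at 0.34 and 0.29. In iWAT KO mice 1, 3 and 4 were at 0.22, 0.21 and 0.045. The macrophage markers of KO mouse 2 averaged 9.05 in eWAT, next to 9.39 to 9.54 in wild-type mice. They were the highest of the KO mice in every tissue, at 4.45 in liver, 6.83 in iWAT and 4.76 in BAT. All 8 macrophage markers were lower in every KO than in every wild-type eWAT sample, and 7 of the 8 passed the test, with a mean difference of -2.27 (exact permutation p = 0.0286). Adipocyte markers in eWAT averaged 9.13 to 9.46 in wild-type and 9.70 to 10.01 in KO mice, and 7 of 8 passed as higher and *Lep* as lower. Markers of mesothelium and epididymis averaged 3.65 to 4.69 in wild-type and 3.53 to 3.70 in KO eWAT, with *Upk3b* (-1.62) and *Msln* (-0.98) of the 8 called lower. Of these 8, 5 had a lower and 3 a higher KO mean, 1 of the latter without overlap, and none was called higher. The 6 lipogenesis genes changed in eWAT in the same samples as these marker lists, whose part in these differences was not tested. Without KO mouse 2, 9 of the 10 genes passed in eWAT, 8 higher and 1 lower, with 5429 of all genes.

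**Figure D3:**
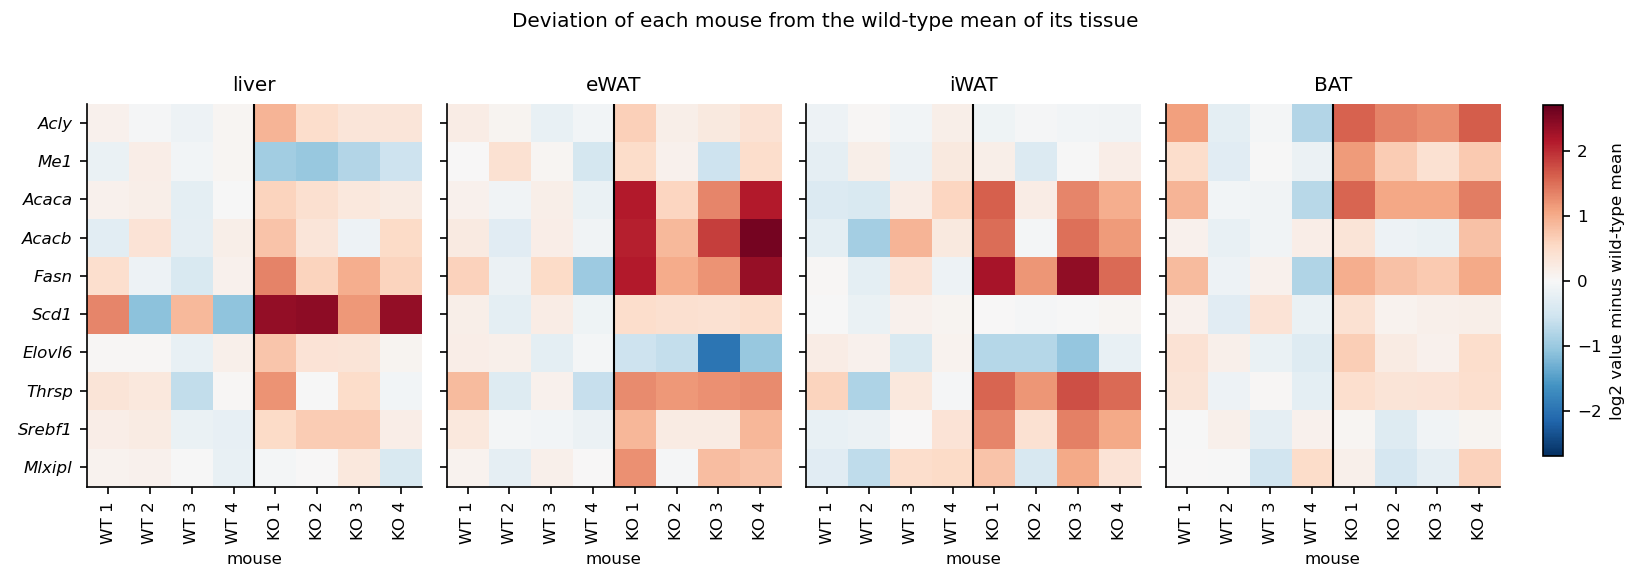
Deviation of each mouse (columns) from the wild-type mean of its tissue for each gene (rows), in log2 units by colour, red for higher and blue for lower. In eWAT and iWAT the column of KO mouse 2 is paler than those of the other KO mice for *Acaca*, *Acacb* and *Fasn*, as it is for *Mlxipl* in eWAT, and *Elovl6* is blue in all KO mice of both depots.

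In iWAT, the arrays with B cell markers were spread over both genotypes, as wild-type mice 1 and 2 and KO mice 2 and 4. With those 4 arrays left out, which leaves 2 mice per genotype, 4 of the 10 genes passed (3.72% of all genes), all of them higher in KO mice. They were *Fasn* at 2.20, *Thrsp* at 1.54, *Srebf1* at 1.15 and *Acaca* at 1.08. With the B cell marker mean as a covariate over all 8 mice, 3 passed (0.398% of all genes), namely *Fasn* at 1.77, *Srebf1* at 0.96 and *Acaca* at 0.92. Without KO mouse 2 alone, *Fasn* (2.05) and *Srebf1* (1.23) passed, with 227 of all genes. These settings were chosen after seeing the data, except the omission of single mice. Macrophage markers in iWAT averaged 6.80 to 7.66 in wild-type and 5.60 to 6.83 in KO mice, with KO mouse 2 the highest. Brown adipocyte markers there averaged 3.5 to 4.08 in wild-type and 3.88 to 4.72 in KO mice, with KO mouse 2 the lowest of the KO mice, and 7 of the 8 had a higher KO mean although none passed. The part of both lists was not tested.

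In BAT, the mean of the 8 brown adipocyte markers was 8.80 to 9.12 in wild-type and 8.32 to 8.47 in KO mice, lower in every KO mouse. Of the 8, 6 had a lower and 2 a higher KO mean, 1 of the latter without overlap, and none passed. Among the 10 lipogenesis genes, 9 had a higher KO mean. The adipocyte markers overlapped there, at 9.32 to 9.44 and 9.20 to 9.39. Leaving out the 3 arrays with muscle markers kept 2 wild-type and 3 KO mice. With those arrays left out, or with the markers as a covariate, none of the 10 genes passed, as in the whole set. Under both settings 0 of all genes passed, so the lack of calls is not particular to the 10. The part of the brown adipocyte markers was not tested.

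Whether the KO effect differed between tissues was tested on each mouse's difference between eWAT and another tissue, since the labels give the same mouse number in every tissue. Against BAT, 4 of the 10 genes passed (6.93% of all genes), and against liver 4 passed (8.37%). Against iWAT none of the 10 passed (0% of all genes, limma), with 3 of the 10 and 2651 of all genes at an unadjusted p below 0.05, and none of the 10 passed either when the mice were not paired. The iWAT gene with the smallest p was *Scd1*, whose effect was greater in eWAT by 0.44 ± 0.12 (adjusted p = 0.211). For *Fasn* the difference between the white depots was -0.16 ± 0.41, with a 95% interval of -1.09 to 0.76.

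*Elovl6* and *Acacb* differed most clearly. The KO effect on *Elovl6* was lower in eWAT than in BAT by 1.42 ± 0.24 (adjusted p = 0.0107) and lower than in liver by 1.43 ± 0.25 (adjusted p = 0.00991), and all 4 KO mice lay below all 4 wild-type mice in both per-mouse differences. The effect on *Acacb* was greater in eWAT than in BAT by 1.65 ± 0.22 (adjusted p = 0.00772) and than in liver by 1.49 ± 0.35 (adjusted p = 0.0271). *Elovl6* in both contrasts and *Acacb* against BAT passed under each alternative. *Acacb* against liver was lost without wild-type mouse 2 (1.26) or 4 (1.41) or KO mouse 1 (1.54), 3 (1.31) or 4 (1.30).

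The other calls were closer to the threshold. *Thrsp* had a greater effect in eWAT than in BAT by 0.84 ± 0.17 (adjusted p = 0.0196), lost without wild-type mouse 2 (0.77), wild-type mouse 4 (0.71) or KO mouse 1 (0.84). *Acly* had a lower effect in eWAT than in BAT by 1.10 ± 0.29 (adjusted p = 0.0443), and it was lost without any one mouse other than wild-type mouse 1 (range over the 8 omissions -1.4 to -0.86) and after quantile normalization (-0.95). Against liver, *Acaca* had a greater effect in eWAT by 1.16 ± 0.32 (adjusted p = 0.0489), lost without any one mouse other than KO mouse 2 (range 0.91 to 1.5). *Me1* had a greater effect in eWAT than in liver by 0.96 ± 0.25 (adjusted p = 0.0407), lost without any one mouse other than KO mouse 3 (range 0.79 to 1.21). *Scd1*, whose effect was lower in eWAT than in liver by 1.63 ± 0.47, did not pass (adjusted p = 0.0556), nor did *Srebf1* against BAT at 0.64 ± 0.17 (adjusted p = 0.0506). *Scd1* against liver passed without dim genes, after quantile normalization (-1.79) and without wild-type mouse 1 (-2.02) or KO mouse 3 (-1.93). *Srebf1* against BAT passed without dim genes, after quantile normalization and without KO mouse 3 (0.75 in each of the last 2). *Fasn* against BAT, at 0.79 ± 0.25 (adjusted p = 0.0866), passed after quantile normalization (0.96) and without KO mouse 2 (0.99), and *Mlxipl* against liver, at 0.75 ± 0.26 (adjusted p = 0.119), passed without KO mouse 2 (1.01). When the mice were not paired across tissues, *Thrsp* and *Acly* against BAT and *Acaca* and *Me1* against liver did not pass, at unchanged differences. The contrasts share the eWAT arrays.

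**Figure D4:**
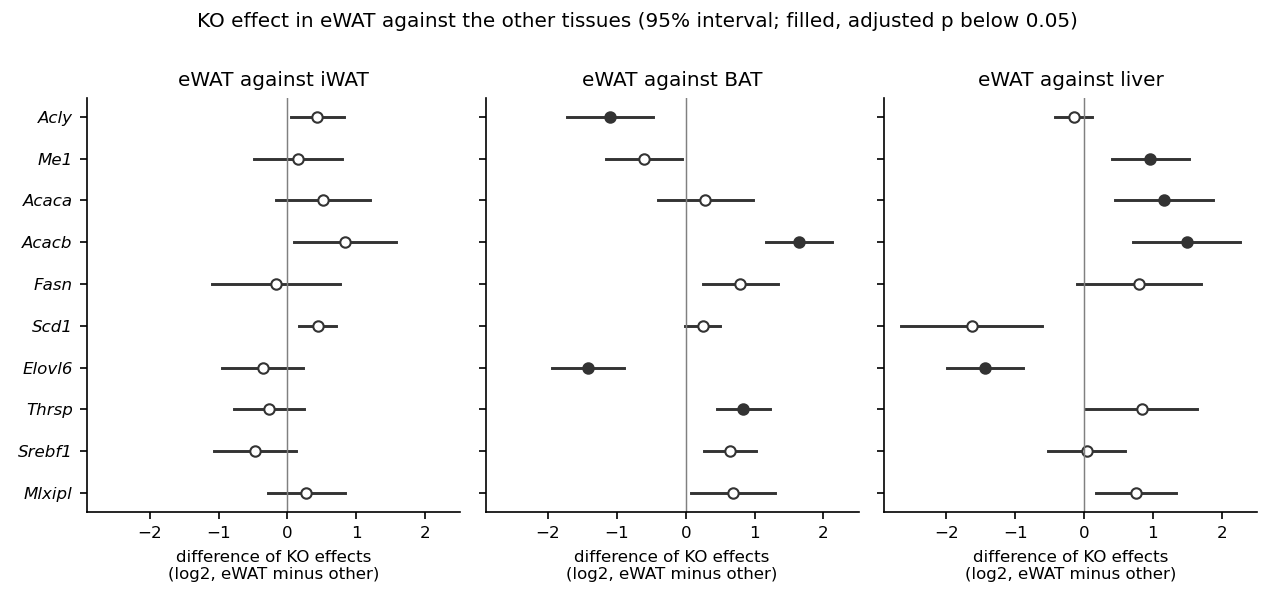
Difference between the KO effect in eWAT and that in iWAT, BAT or liver for the 10 genes (x axis, log2, eWAT minus the other tissue), with points for the estimate, lines for the 95% interval and filled points for genes past the adjusted threshold. *Elovl6* lies at -1.42 against BAT and -1.43 against liver, *Acacb* at 1.65 and 1.49, and no point is filled against iWAT.

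The rest of the pathway was read from 5 lists with 70 further genes. In eWAT 28 of the 70 passed (15.2% of all genes), 18 higher and 10 lower, with a median difference of 0.04 against 0.03 over all genes. After quantile normalization 22 were called higher and 8 lower. Of 12 genes of substrate and NADPH supply, 5 rose and 2 fell, and the median was 0.47. The rises were *Pcx* (1.27), the pyruvate carboxylase that feeds citrate synthesis, the insulin-responsive glucose transporter *Slc2a4* (0.94), the hexokinase *Hk2* (0.87), the acetyl-CoA synthetase *Acss2* (0.61) and *Mdh1* (0.40). The falls were *Pgd* (-0.74) and *G6pdx* (-0.54), the dehydrogenases of the pentose phosphate pathway that make NADPH. The citrate carrier *Slc25a1* (0.53) did not pass (adjusted p = 0.108).

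Of 13 genes of desaturation and elongation, only *Elovl1* (-1.08), an elongase of very long chains, passed in eWAT, as lower, next to the lower *Elovl6*. Of 20 genes that control SREBP, LXR and insulin signalling, 6 rose and 2 fell, led by *Cebpa* (1.13), a transcription factor of adipocyte differentiation, the insulin receptor *Insr* (0.75) and *Irs1* (0.64). The falls were *Mbtps2* (-0.76), the protease that releases SREBPs, and *Srebf2* (-0.53), which encodes the SREBP of cholesterol synthesis. Of 12 targets of SREBP-1 and LXR, 5 rose and 4 fell. *Gpam*, the first acyltransferase of triglyceride synthesis, was 7.39, 7.0, 7.25 and 7.14 in the wild-type mice and 9.41, 8.08, 8.83 and 9.35 in the KO mice (difference 1.72 ± 0.26, adjusted p = 0.00871), without overlap, and *Aacs* (1.58) and *Pnpla3* (1.4) also rose. *Pltp* (-1.28) and *Lpcat3* (-0.60), LXR targets, were among those that fell, in the samples where macrophage markers were lower, whose part was not tested. *Abca1* (0.50), also an LXR target, was among those that rose. Of 13 ChREBP partners and targets, *Tkfc* (0.39) and *Txnip* (0.35) rose and *Mlx* (-0.59), the partner of ChREBP, fell.

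In liver 2 of the 70 genes passed (0.661% of all genes), 1 in each direction, where 40 of all genes were higher and 123 lower. *Insig1*, an SREBP target that retains SREBP in the endoplasmic reticulum, was 9.12, 8.46, 8.47 and 8.89 in the wild-type mice and 9.64, 9.47, 9.52 and 9.45 in the KO mice, with a rise of 0.79 ± 0.14 and adjusted p = 0.0345. *Txnip*, a glucose-induced ChREBP target, was 6.58, 6.24, 6.89 and 6.39 in the wild-type mice and 5.32, 5.56, 5.84 and 4.86 in the KO mice, and fell by 1.13 ± 0.20 on the log2 scale (adjusted p = 0.0311). Neither overlapped between genotypes. The median of the 13 ChREBP genes was -0.17 in liver, with 11 of 13 below 0, and that of the 12 SREBP-1 and LXR targets -0.07, against 0.01 over all genes.

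None of the 70 passed in iWAT or BAT (limma), where 0% and 0.0284% of all genes passed. At an unadjusted limma p below 0.05 were 27 and 17 of the 70, against 3803 and 3127 of all 24646 genes. In iWAT the smallest p values belonged to *Cebpa* (0.92), *Slc2a4* (0.91) and *Insig1* (0.90), each with adjusted p = 0.221 and with no overlap between genotypes. Of the 12 supply genes, 11 had an unadjusted p below 0.05 in iWAT and the median was 0.52. With the arrays carrying B cell markers left out, 9 of the 70 passed (3.72% of all genes), 5 higher and 4 lower, where 205 of all genes were higher and 711 lower. In BAT the smallest p values were those of *Pltp* (-0.66), *Aacs* (0.91) and *Rxra* (-0.53), with adjusted p of 0.116, 0.128 and 0.137. Of the 20 control genes in BAT, 17 had a lower KO mean, with a median of -0.14.

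**Figure D5:**
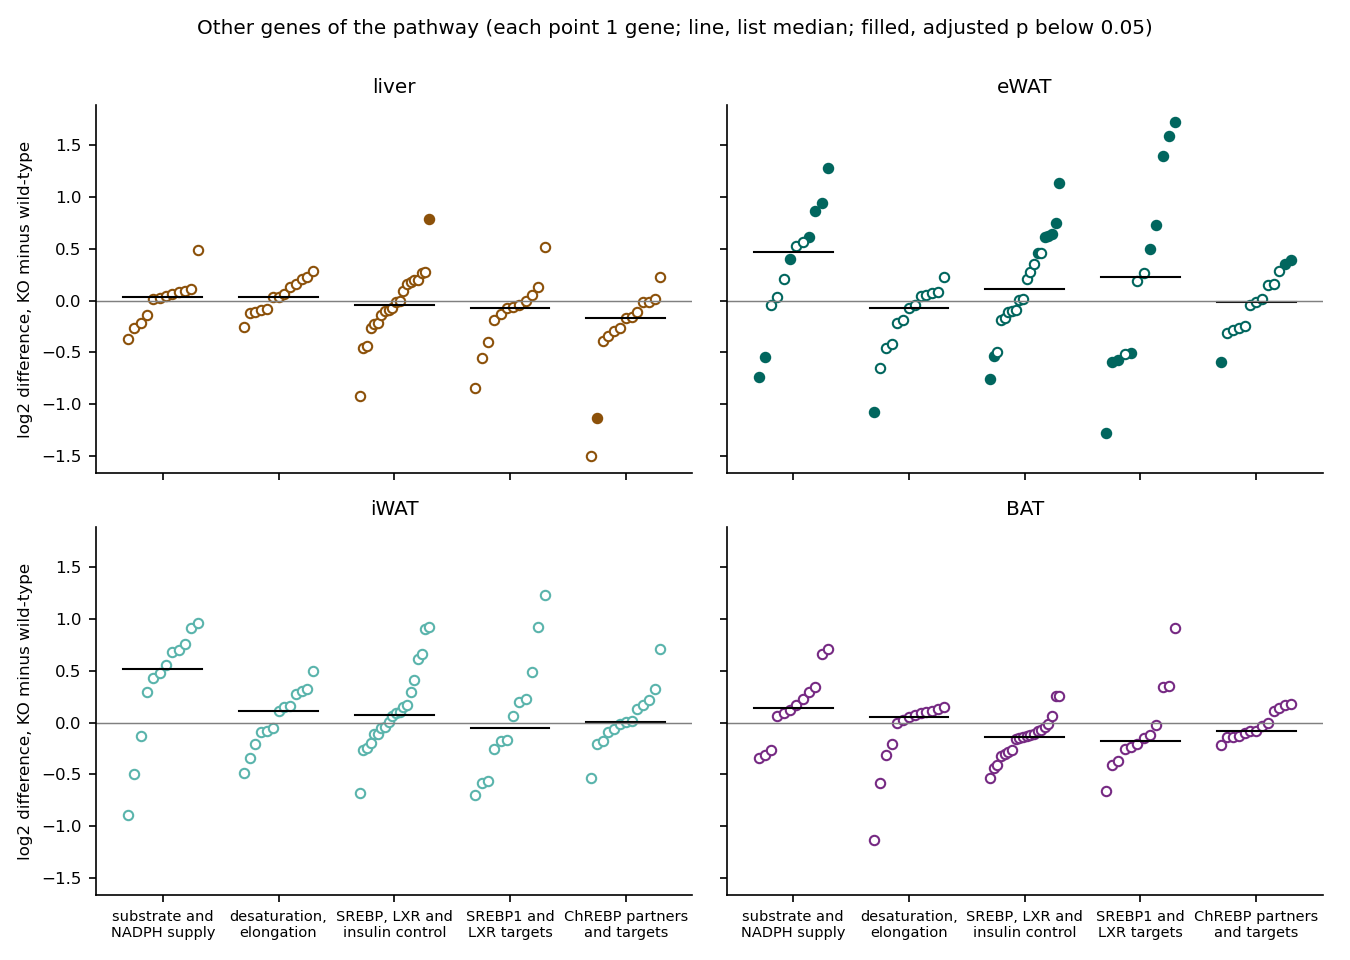
Log2 difference between KO and wild-type mice (y axis) for the 70 other genes of the pathway in 5 lists (x axis), 1 panel per tissue, each point being 1 gene, lines the list medians and filled points genes past the adjusted threshold. Filled points are frequent in eWAT in both directions, 2 in liver and none in iWAT or BAT, and the supply list has its median at 0.47 in eWAT and 0.52 in iWAT.

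In wild-type mice the genes had their own order of tissues, given as deposited values. Whether the tables were normalized apart is not stated, and no test was run across them (array medians were 3.00 to 3.06 in liver, 3.13 to 3.18 in eWAT, 3.65 to 3.73 in iWAT and 2.82 to 2.86 in BAT). BAT was highest for *Fasn*, at 10.31 ± 0.69 (SD, n = 4), with 7.42 ± 0.74 in eWAT, 7.30 ± 0.37 in liver and 7.17 ± 0.27 in iWAT, the latter 3 overlapping. For *Elovl6*, BAT stood at 9.09 ± 0.33, liver at 6.09 ± 0.15, eWAT at 6.03 ± 0.20 and iWAT at 5.33 ± 0.28. The BAT values of *Acaca* (8.70 ± 0.69), *Acacb* (8.87 ± 0.17) and *Thrsp* (10.11 ± 0.27) also lay above every value of the other tissues, as they did after quantile normalization of all arrays together. *Acly*, *Me1* and *Srebf1* had their highest means in BAT too, at 7.90 ± 0.80, 8.75 ± 0.34 and 6.50 ± 0.18, but overlapped the next tissue as deposited.

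The rest of the levels in wild-type mice were as follows, again with SD and without a test. *Acaca* was 7.10 ± 0.47 in iWAT, 6.51 ± 0.17 in eWAT and 5.68 ± 0.19 in liver, and *Acacb* was 6.08 ± 0.77, 5.58 ± 0.26 and 4.63 ± 0.31 in the same order. As deposited, eWAT lay above all livers for both carboxylases, and iWAT overlapped eWAT for *Acacb* and not for *Acaca*, whereas after quantile normalization eWAT overlapped liver for *Acacb* and iWAT for *Acaca*. *Thrsp* was 7.69 ± 0.64 in eWAT, 7.31 ± 0.46 in liver and 6.78 ± 0.61 in iWAT, all overlapping. *Acly* was 7.12 ± 0.18 in eWAT, 6.95 ± 0.11 in liver and 6.61 ± 0.13 in iWAT, *Me1* was 8.42 ± 0.36 in eWAT, 8.33 ± 0.24 in iWAT and 7.46 ± 0.15 in liver, and *Srebf1* was 6.27 ± 0.23 in liver, 5.93 ± 0.26 in iWAT and 5.67 ± 0.19 in eWAT.

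*Scd1* had another order, with 11.37 ± 0.13 in iWAT, 11.12 ± 0.22 in eWAT and 10.95 ± 0.30 in BAT, which overlapped, and 8.64 ± 1.28 in liver. *Mlxipl* was 8.63 ± 0.14 in liver and 8.60 ± 0.41 in BAT, which did not differ beyond their spread, then 7.02 ± 0.60 in iWAT and 6.02 ± 0.17 in eWAT. The order depended on the scaling for some genes. After quantile normalization of all arrays together, liver stood above eWAT for *Fasn* (7.33 against 7.19) and *Acly* (7.05 against 6.86), and iWAT was level with eWAT for *Me1* (8.35 against 8.33). *Mlxipl* then had its highest mean in BAT (8.65, against 8.47 in liver), and *Acly* in BAT no longer overlapped liver.

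Across mice of the same tissue and genotype the genes moved together to different degrees. Over the 32 arrays, the deviation of a gene from its tissue and genotype mean was compared with the mean deviation of the other 9, as a description in which the arrays share a mouse across tissues. Pearson's r was highest for *Acaca* (0.86), *Fasn* (0.79) and *Srebf1* (0.68) and lowest for *Scd1* (0.05) and *Elovl6* (0.22). Within single tissues, of 8 arrays each, the order was not the same. There r ran from 0.79 to 0.92 for *Acaca* and 0.72 to 0.90 for *Fasn*, but from 0.20 in BAT to 0.95 in eWAT for *Srebf1*, from -0.20 in liver to 0.63 in iWAT for *Scd1*, and from -0.33 in iWAT to 0.86 in BAT for *Elovl6*. Outside the 10, the genes most like their mean were *Slc25a1* (0.89), the mitochondrial citrate carrier, and *Tkt* (0.84), the transketolase of the pentose phosphate pathway, both of the supply list. They were followed by *Echs1* (0.82), *Dyrk1b* (0.81), *Ivd* (0.80), *Nat8l* (0.80), *Sdhb* (0.80), *Mccc1* (0.79), *Pfkfb1* (0.79) and *Dab2ip* (0.79). Within single tissues their r varied too. It ran from 0.67 in liver to 0.95 in BAT for *Slc25a1* and from 0.35 in liver to 0.98 in BAT for *Tkt*. For *Nat8l* it ran from -0.041 in BAT to 0.99 in eWAT, and for *Mccc1* from 0.70 in BAT to 0.90 in eWAT.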

How the data were processed

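Total RNA (100 ng, biotin-labelled) from liver, eWAT, iWAT and BAT of 4 wild-type and 4 *Gpr146* KO mice was hybridised to Affymetrix Mouse Gene 2.1 ST arrays. The authors deposited log2 expression values in separate tables for the tissues, with 1 value per gene symbol, which for 840 symbols averaged several probe sets. The software, the probe summary and the normalization are not given in the sources used here. Each table has its own median, so tests of genotype stayed within a table. From each, 1 or 2 entries without a usable gene name were left out. The number of arrays limits the precision.

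Column names were matched to the labels for tissue, genotype and mouse, and the tables named for visceral and inguinal fat were taken as eWAT and iWAT. KO and wild-type mice were compared with limma 3.58.1 (R 4.3.3) per tissue over all 24646 genes, with Benjamini-Hochberg adjustment and a threshold of 0.05. KO effects were compared between tissues with limma on per-mouse differences, the labels giving the same mouse number in each tissue. Deviations from the group means of the same mouse correlated between tissues with a mean r of 0.03 to 0.10 over 6 pairs of tissues, against -0.03 to -0.01 for other mice. Single values for the same mouse ran from -0.15 to 0.30. Deviations cancel within a group, so the values for other mice are tied to those for the same mouse and are no independent check of the pairing. Same-numbered KO and wild-type mice are not the same animal and their deviations did not correlate throughout (r from -0.38 to 0.67), so no replicate block was used within a tissue. Single values were compared by two-sided exact permutation tests. The fits were tested on simulated data. Figures were drawn with matplotlib 3.10.9.

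The 10 genes and all lists were chosen with earlier results of these data known. Genes named are these 10, *Gpr146*, and from 5 further lists per tissue up to 5 rises and 5 falls past the threshold with the largest change and no overlap, or the 3 smallest p where none passed. The 10 genes whose deviations correlate best with the mean of the lipogenesis genes are also named. *Slc2a4*, *Hk2*, *Acss2*, *Mdh1*, *G6pdx*, *Slc25a1*, *Insr*, *Irs1*, *Srebf2*, *Abca1*, *Mlx*, *Tkfc* and *Txnip* in eWAT were named after their values were seen. So were *Lep*, *Upk3b* and *Msln* among the markers. Alternatives were a trended robust prior, array weights, a filter on dim genes, quantile normalization, equal medians, the methods' t-test, the replicate block and each mouse left out. Arrays with B cell or muscle markers above 5 were left out, or that marker mean was taken as a covariate, as alternatives chosen after seeing the data.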

Additional observations from a re-analysis of the deposited data

Results flagged for a closer look

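In 2 of the 80 groups of 4 arrays examined (10 genes in 8 groups), 1 mouse stood far from the other 3, where chance gives about 1 in 20. KO mouse 3 lay below the other KO livers for *Scd1*, with a gap that was 0.968 of the group's whole range. Wild-type mouse 3 lay below the other wild-type iWAT samples for *Elovl6*, with a gap of 0.834 of the range. Both were kept.

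The KO effect differed between eWAT and another tissue, by limma on per-mouse differences, for 6 of the 10 genes over both contrasts together. In the contrast with BAT 4 passed (6.93% of all genes), and in that with liver 4 passed (8.37%). The share of all genes that passed in either contrast is not given here. Without pairing by mouse only *Acacb* and *Elovl6* passed, in both contrasts. Against BAT the differences were 1.65 for *Acacb*, 0.84 for *Thrsp*, -1.10 for *Acly* and -1.42 for *Elovl6*, on the log2 scale. Against liver they were 1.49 for *Acacb*, 1.16 for *Acaca*, 0.96 for *Me1* and -1.43 for *Elovl6*.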

How the results depend on the processing

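The count of lipogenesis genes past the threshold depended on the test and on single mice. In liver the single call (*Me1*) rose to 7 genes with the methods' t-test without adjustment (2901 of all genes), fell to 0 with that test after Benjamini-Hochberg adjustment and was 2 with the replicate block (189 of all genes), which added *Fasn* at an unchanged 0.88 (adjusted p = 0.0351, limma); it stayed at 1 whichever mouse was left out. In eWAT the 6 calls became 0 with the adjusted t-test (38 of all genes) and ranged from 2 to 9 with 1 mouse left out: 2 without wild-type mouse 2 (1448 of all genes), 3 without wild-type mouse 4 (1659) or KO mouse 4 (2070), 4 without KO mouse 1 (2203) and 9 without KO mouse 2 (5429), against 6 and 3758 with all mice. Array weights gave 9 (5295 of all genes), and the filter on dim genes (3829), quantile normalization (3740) and the replicate block (3405) gave 7. In iWAT and BAT the t-test without adjustment called 5 genes in each (3167 and 2803 of all genes), and leaving out 1 mouse gave 0 to 2 in each, with 2 in iWAT without KO mouse 2 (227 of all genes) and 2 in BAT without wild-type mouse 1 (80). The settings added for iWAT gave 4 genes without the arrays carrying B cell markers (916 of all genes) and 3 with the marker mean as a covariate (98). Where the KO effect was compared with BAT or liver, the 4 calls became 2 in each with no replicate block, that is, without pairing by mouse (1474 and 2103 of all genes), and ranged from 2 to 4 and from 1 to 4 with 1 mouse left out. Against BAT the count was 2 without wild-type mouse 2 or 4 or KO mouse 1; against liver it was 1 without wild-type mouse 2 or 4 or KO mouse 1 or 4 and 2 without wild-type mouse 3. Within a tissue the replicate block changed the calls of *Fasn* in liver and *Mlxipl* in eWAT and no other call of these genes.

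Signs turned only for differences near 0. After quantile normalization *Acly*, *Scd1* and *Me1* in iWAT were 0.10, -0.13 and 0.11, and *Scd1* there was -0.018 with equal medians. Array weights gave 0.036 for *Me1* in iWAT and -0.028 for *Mlxipl* in BAT. With 1 mouse left out the ranges were -0.15 to 0.075 for *Mlxipl* in liver, -0.021 to 0.37 for *Me1* in eWAT, -0.050 to 0.047 for *Scd1* and -0.10 to 0.11 for *Me1* in iWAT, -0.17 to 0.0019 for *Srebf1* and -0.18 to 0.19 for *Mlxipl* in BAT. For the differences between tissues they were -0.49 to 0.18 for *Fasn* and -0.094 to 0.38 for *Me1* between eWAT and iWAT, and -0.19 to 0.21 for *Srebf1* between eWAT and liver. Without the arrays carrying B cell markers *Scd1* was -0.10 and *Me1* 0.020 in iWAT, and with the covariate *Scd1* was -0.0057. *Mlxipl* in BAT was -0.081 without the arrays carrying muscle markers and -0.076 with that covariate. The cause of these changes was not tested. With 4 mice per genotype, a difference that did not pass is not shown to be absent.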
